A study of Mus musculus with 8 samples.

Results

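Potassium channel genes were examined in the aorta of mice during and after a transient infusion of angiotensin II. They were taken as every gene of the count table whose symbol starts with Kcn, which gave 94 of 35896 genes, and those with at least 10 counts summed over the 8 libraries were kept, which left 78. The 16 genes under this minimum held from 0 counts (Kcnk15, Kcnk16 and Kcnv1) to 8 counts (Kcnk7), and the lowest genes kept were Kcnh5 with 11 counts and Kcnh6 with 16. By symbol, 36 of the 78 genes were voltage-gated, 10 calcium-activated (with their Kcnmb beta subunits and the related Kcnt genes), 13 inward rectifiers, 9 two-pore channels and 10 auxiliary subunits of voltage-gated channels. The filter on low counts left 68 genes for testing, namely 32, 9, 10, 9 and 8 of these classes, and a gene passed it when its counts sufficed in at least as many libraries as a group holds. The 10 genes that did not pass it were Kcnf1, Kcng3, Kcnh5, Kcnh6, Kcnip1, Kcnj1, Kcnj13, Kcnj16, Kcnrg and Kcnu1.

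The mice were males of the strain labelled C57BL6 (C57B6/J in the methods of the study), 11 weeks old at the start. CTRL mice were untreated littermates, which the study calls age-matched and took at each time point. The labels do not say to which time point the 2 CTRL libraries belong. AngII mice were sacrificed at the end of a 2 week infusion of AngII at 2.8 mg/kg/d by osmotic minipump. AngII+2W and AngII+3W mice were sacrificed 2 and 3 weeks after the same infusion had stopped. The AngII groups thus also differed in age at sacrifice, which cannot be told apart from the time since the infusion. Each group had 2 libraries, and each library was made from 1 of 3 parts of the aorta (which part is not given) of 2 mice, pooled, so that 16 mice gave 8 libraries and the spread within a group was the difference between 2 pools. RNA was whole-tissue RNA after removal of ribosomal RNA, and no cell type was separated.

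Potassium channels let potassium leave the cell, which holds the membrane of a vascular smooth muscle cell negative, keeps L-type calcium channels shut and favors relaxation. Voltage-gated channels open on depolarization, the large-conductance calcium-activated channel (pore gene Kcnma1, beta subunit gene Kcnmb1) opens on local calcium release, inward rectifiers hold the resting potential or sense metabolism, and two-pore channels carry background current. Auxiliary subunits change the gating or surface level of voltage-gated pores. Angiotensin II is a vasoconstrictor that raises calcium in these cells.

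The libraries held between 18130441 and 21498200 counts, of which the 78 genes took 0.0753 to 0.104%, and 3 counts corresponded to 0.140 to 0.165 CPM (counts per 1000000 counts). Smooth muscle markers, as the tissue label calls for, were present in every library, and none of the 10 was at 0. Cardiac muscle markers were present as well and were uneven: the 10 markers summed to 5729 and 2554 CPM in CTRL, 1554 and 986 in AngII, 260 and 86.6 in AngII+2W, then 6530 and 504 in AngII+3W. AngII+3W replicate 1 also stood apart by its skeletal muscle markers, which summed to 2909 CPM, against 31.9 to 155 CPM in the other libraries. Calls, class medians and most fold changes that rest on AngII+3W are therefore given with and without that library, while values per library show it directly.

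Kcnc4 is shown first because it had the largest called fold change of these genes and because its mRNA has its own RT-qPCR assay in the study. The gene (ENSMUSG00000027895) lies on the reverse strand of chromosome 3 at 107438303 to 107459552 of GRCm38. The forward primer matched coding exon 2 (chr3:107447553-107447572) and the reverse primer coding exon 3 (chr3:107445584-107445603) of its 1 annotated transcript, and no other annotated gene held both. The amplicon of 119 bases in the annotated mRNA reads as follows, in the sense direction, with the primer sites in capitals.
Kcnc4 amplicon: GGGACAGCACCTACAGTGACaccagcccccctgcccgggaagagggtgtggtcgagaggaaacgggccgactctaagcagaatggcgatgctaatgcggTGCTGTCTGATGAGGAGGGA

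The start regions of the genes that fell together were compared next. RefSeq start windows of 300 bases on GRCm38.p6 (250 before and 50 after the annotated start) were at hand for 57 of the 78 genes, in 81 windows. None of the 81 held a CArG box, the motif bound by serum response factor at smooth muscle contractile genes, while 1.63% of all 32851 windows did. No match says only that the letters are not in these windows. The 250 bases before the start are given for Kcnmb1, Kcnab1 (1 of its 3 annotated starts) and Kcnh2 (a start that lies inside the gene as GENCODE bounds it, not at its 5′ end), whose windows lie over no annotated exon, with CG dinucleotides in capitals, 5′ to 3′ on the strand of the gene.
Kcnmb1, chr11:33962763-33963012, forward strand: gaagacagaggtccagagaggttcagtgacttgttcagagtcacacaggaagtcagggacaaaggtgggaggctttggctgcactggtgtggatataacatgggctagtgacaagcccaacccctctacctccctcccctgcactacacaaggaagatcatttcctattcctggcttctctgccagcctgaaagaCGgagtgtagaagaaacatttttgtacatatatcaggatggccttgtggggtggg
Kcnab1, chr3:65108764-65109013, forward strand: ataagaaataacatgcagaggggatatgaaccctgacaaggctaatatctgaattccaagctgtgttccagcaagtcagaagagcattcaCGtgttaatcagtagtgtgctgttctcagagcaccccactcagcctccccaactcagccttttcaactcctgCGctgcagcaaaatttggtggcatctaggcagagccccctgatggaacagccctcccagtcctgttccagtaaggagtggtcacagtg
Kcnh2, chr5:24329592-24329841, reverse strand: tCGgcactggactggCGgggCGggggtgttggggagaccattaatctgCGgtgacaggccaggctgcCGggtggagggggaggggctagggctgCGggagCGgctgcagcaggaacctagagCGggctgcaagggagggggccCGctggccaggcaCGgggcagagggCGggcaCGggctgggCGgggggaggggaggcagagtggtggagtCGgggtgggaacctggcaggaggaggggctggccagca
The stretches differ in base composition: that of Kcnmb1 holds 1 CG and that of Kcnab1 2, whereas that of Kcnh2 holds 14. Over the whole 300 bases, the windows of Kcnc4 and Kcna2 held 17 and 31 CG, beside a median of 7 over all windows. The called genes thus included both CG-poor and CG-rich starts.

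Levels were compared between genes as CPM per kb of annotated exon, averaged over the 8 libraries. Kcnk3, which encodes the background channel TASK-1, stood far above the other genes at 63.7 CPM per kb and alone took 24.3 to 45.2% of the summed level of the 78 genes in a library. Among the next in order were Kcnj8 (Kir6.1, the pore of the vascular ATP-sensitive channel) at 9.23, Kcnmb1 at 7.59, Kcnj3 at 6.73, Kcna5 (Kv1.5) at 5.60, Kcnh2 at 5.02 and Kcnab1 at 4.23 CPM per kb. Lower levels were those of Kcnj15 at 3.92, Kcnk6 at 3.64, Kcns3 at 3.35, Kcne4 at 3.32 and Kcnma1 at 3.11 CPM per kb, while Kcnc4 stood 20th at 1.77. Every library of Kcnk3 lay above all libraries of the other genes, while the libraries of Kcnj8, Kcnmb1 and Kcnj3 overlapped, so that the order among these 3 was not larger than their spread.

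By class, two-pore genes summed to 54.3 to 82.1 CPM per kb in a library, voltage-gated genes to 33.8 to 55.5, inward rectifiers to 13.3 to 54.6, calcium-activated genes to 10.8 to 27.0 and auxiliary subunits to 6.89 to 18.0. The calcium-activated class was at 27.0 and 20.4 CPM per kb in CTRL and at 11.8 and 13.0 in AngII, and these groups did not overlap. It was also below CTRL in AngII+2W, at 18.4 and 15.1, and in AngII+3W, at 10.8 and 14.7. The voltage-gated class was at 55.5 and 52.7 in CTRL and at 39.8 and 33.8 in AngII, again without overlap. It was below CTRL in AngII+2W, at 41.8 and 47.4, and in AngII+3W, at 49.3 and 45.8, as well. These sums follow the genes of highest level most, and Kcnmb1 had the highest level of the calcium-activated class. Of the genes tested, 1 of 9 calcium-activated and 5 of 32 voltage-gated were called lower in AngII, beside 2.2% of all genes. The inward rectifiers were at 46.6 and 25.1 in CTRL, above the 20.6 and 23.8 of AngII and the 14.3 and 13.3 of AngII+2W, while AngII+3W lay on both sides of CTRL at 54.6 and 16.4. Their 2 highest sums were in CTRL replicate 1 and AngII+3W replicate 1, the libraries with the most cardiac muscle markers.

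**Figure D1:**
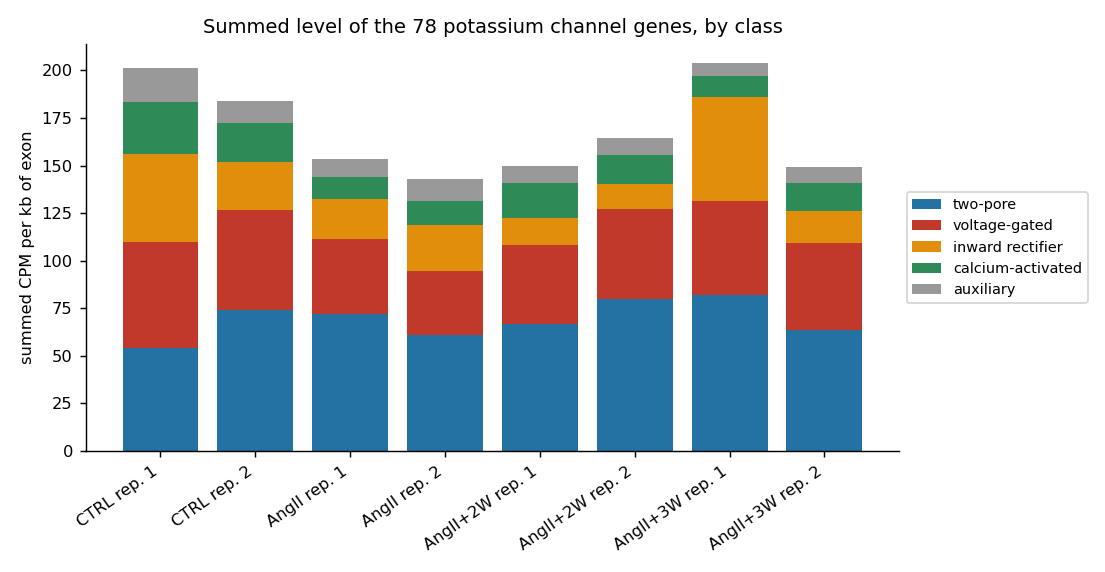
Summed level of the 78 potassium channel genes in each library, in CPM per kb of exon (y axis), stacked by class (colors), with the 8 libraries on the x axis. The two-pore part, mostly Kcnk3, is between 54.3 and 82.1 in every library, while the inward rectifier part is largest in CTRL replicate 1 and AngII+3W replicate 1.

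The first comparison asked which of these genes differed at the end of the infusion. Against CTRL, 8 of the 68 genes tested (11.8%) were lower in AngII and 0 were higher at an FDR below 0.05 (edgeR quasi-likelihood F test, Benjamini-Hochberg over 17182 genes), beside 2.2% of all genes called lower and 2.9% called higher. The 8 genes were Kcnc4, Kcnab1, Kcnh2, Kcnmb1, Kcna2, Kcnd3, Kcnip4 and Kcnq5. At an unadjusted p below 0.05, 13 genes were lower and 7 higher (9.29% and 10.9% of all genes). The median log2 fold change of the 68 genes was -0.14, against -0.01 for all genes. Both AngII libraries lay below both CTRL libraries in 26 genes and above them in 13, which held for 24.9% and 24.4% of all genes. The count of 8 called genes was 0 without AngII replicate 2, 2 without CTRL replicate 1, 3 without AngII replicate 1, 5 without either AngII+2W library and 13 without either AngII+3W library, beside 0%, 0.162%, 1.28%, 1.56 to 1.58% and 8.35 to 8.48% of all genes in the same fits.

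Kcnc4 encodes Kv3.4, a fast inactivating voltage-gated channel that is found in smooth muscle as well as in neurons. It was at 19.0 and 14.6 CPM in CTRL, 1.35 and 2.04 in AngII, 4.15 and 6.23 in AngII+2W, then 2.26 and 2.31 in AngII+3W. All 6 libraries of treated mice were below both CTRL libraries. The log2 fold change in AngII was -3.30 ± 0.30 (SE, edgeR FDR 0.00530). Kcnh2 encodes the channel of the cardiac rapid delayed rectifier current (ERG), which smooth muscle also expresses. It was at 40.7 and 35.0 CPM in CTRL, 12.7 and 13.2 in AngII, 18.7 and 21.8 in AngII+2W, then 23.3 and 29.2 in AngII+3W. The groups lay in 4 separate ranges, lowest in AngII, and the log2 fold change in AngII was -1.55 ± 0.17 (edgeR FDR 0.00753).

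Kcna2 (Kv1.2) forms the delayed rectifier of smooth muscle with Kcna5 and is also a channel of myelinated axons. It was at 31.4 and 30.7 CPM in CTRL, 15.6 and 16.4 in AngII, 24.5 and 28.1 in AngII+2W, then 35.9 and 36.2 in AngII+3W. Replicates were close to each other throughout, and only the AngII and AngII+2W libraries lay below CTRL. The log2 fold change in AngII was -0.96 ± 0.12 (edgeR FDR 0.0113). Kcnd3 (Kv4.3), which carries the transient outward current, was at 27.7 and 15.3 CPM in CTRL, 6.91 and 7.44 in AngII, 13.3 and 13.2 in AngII+2W, then 12.0 and 9.29 in AngII+3W, with a log2 fold change of -1.58 ± 0.28 in AngII (edgeR FDR 0.0243). The CTRL libraries of Kcnd3 were far apart but remained above the others. Kcnq5 (Kv7.5) was at 9.89 and 8.09 CPM in CTRL and at 3.73 and 4.79 in AngII, while the 4 libraries after the infusion, at 7.63 to 9.57, overlapped with CTRL, and the log2 fold change in AngII was -1.08 ± 0.22 (edgeR FDR 0.0376).

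Other voltage-gated genes that the vessel wall is known for did not pass the threshold. Kcna5 was at 13.6 and 16.7 CPM in CTRL and at 19.2 and 14.8 in AngII, and the interval (95%) of its log2 fold change reached from -0.32 to 0.65. Kcns3, a silent voltage-gated subunit, was at 8.19 and 10.7 CPM in CTRL and at 9.93 and 7.72 in AngII. For both genes the groups overlapped. Kcnd1, at 1.75 and 1.79 CPM in CTRL and 4.10 and 5.64 in AngII, had the smallest p among the genes with higher values (log2 fold change 1.46 ± 0.37, edgeR FDR 0.0669). Kcnc2 was at 1.66 and 2.45 CPM in CTRL and at 4.05 and 3.08 in AngII (edgeR FDR 0.175). Kcna3, a channel of lymphocytes and proliferating smooth muscle, stayed at 0.467 to 1.40 CPM in all libraries, and Kcnq1 was at 7.50 and 4.33 CPM in CTRL and 4.81 and 3.79 in AngII.

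**Figure D2:**
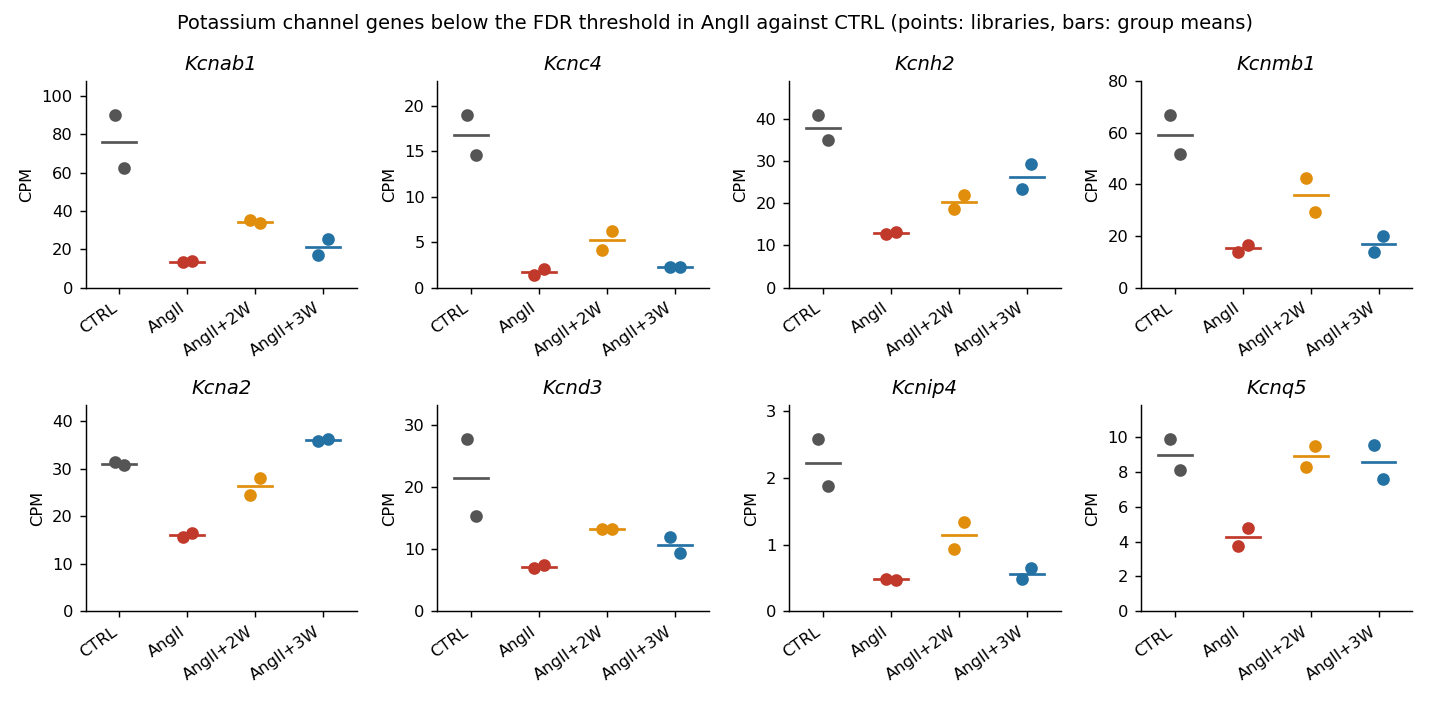
CPM (y axis, from 0) of the 8 genes past the FDR threshold in AngII against CTRL, by group (x axis), with points for libraries and bars for the mean of 2. In every panel both AngII points lie below both CTRL points; Kcna2, Kcnh2 and Kcnq5 are higher again in AngII+3W, while Kcnc4, Kcnmb1 and Kcnip4 stay near their AngII values there.

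Among calcium-activated genes, the beta subunit of the large-conductance channel was called and its pore was not. Kcnmb1 (chromosome 11, 33963013 to 33973641), whose product raises the calcium sensitivity of the channel in smooth muscle, was at 66.7 and 51.8 CPM in CTRL, 14.0 and 16.3 in AngII, 42.7 and 29.4 in AngII+2W, then 13.7 and 19.8 in AngII+3W. Its log2 fold change in AngII was -1.97 ± 0.25 (edgeR FDR 0.0108). Kcnma1 was at 84.3 and 62.5 CPM in CTRL, 58.5 and 50.9 in AngII, 45.5 and 44.3 in AngII+2W, then 28.4 and 47.9 in AngII+3W, with a log2 fold change of -0.42 and an interval from -0.99 to 0.15 in AngII (edgeR FDR 0.395). The intervals of the 2 genes in AngII do not overlap. As counts within a library, Kcnmb1 stood at 0.792 and 0.829 per count of Kcnma1 in CTRL, 0.239 and 0.321 in AngII, 0.937 and 0.664 in AngII+2W, then 0.482 and 0.414 in AngII+3W. The ratio was thus lowest in AngII, on both sides of CTRL 2 weeks later, and between AngII and CTRL 3 weeks later. The ratio was chosen after its values were seen and was not tested across libraries. Kcnn3 and Kcnn4, the small- and intermediate-conductance channels of endothelium, were at 6.38 and 4.23 and at 3.02 and 2.40 CPM in CTRL, and at 3.08 and 5.17 and at 2.27 and 5.31 in AngII, without a call. Kcnt2 was at 20.3 and 8.28 CPM in CTRL and at 18.7 and 19.1 in AngII, and the 10 markers of endothelium summed to 0.108 to 0.151% of counts in all libraries.

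Of the auxiliary subunits, Kcnab1 and Kcnip4 were lower. Kcnab1 (chromosome 3, 65109384 to 65378223) encodes the Kvβ1 subunit that binds Kv1 pores, and was at 89.9 and 62.5 CPM in CTRL, 13.2 and 13.9 in AngII, 35.4 and 33.6 in AngII+2W, then 17.3 and 25.3 in AngII+3W. All libraries of treated mice were below CTRL, and the log2 fold change in AngII was -2.49 ± 0.23 (edgeR FDR 0.00530). Kcnip4, which encodes a calcium-binding partner of Kv4 pores such as that of Kcnd3, was low throughout, at 2.58 and 1.88 CPM in CTRL and 0.486 and 0.474 in AngII (log2 fold change -2.20 ± 0.40, edgeR FDR 0.0261). Kcne4, a regulatory subunit of Kv1 and Kv7 channels, was at 10.5 and 4.19 CPM in CTRL and at 15.1 and 16.2 in AngII, and Kcnab2 at 3.07 and 2.68 and at 4.05 and 9.29, both with groups apart but an FDR of 0.224 and 0.183 by edgeR. Macrophage markers, 6 of 10 of them called higher, took 0.0310 and 0.0392% of counts in CTRL and 0.0781 and 0.137% in AngII, and 3 of 10 fibroblast markers were called higher, from 0.378 and 0.575% to 2.12 and 3.62%. Their part in the values of Kcnab2, Kcne4 and Kcnd1 was not tested.

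No inward rectifier and no two-pore gene was called, of 10 and 9 tested, beside 5.1% of all genes in AngII. Kcnj8 lay between 21.8 and 26.1 CPM in all 8 libraries, with an interval of its log2 fold change in AngII from -0.21 to 0.39, and its partner gene Abcc9 was at 316 and 248 CPM in CTRL and 215 and 218 in AngII without a call. Kcnj2 (Kir2.1) was at 9.99 and 4.19 CPM in CTRL and at 5.56 and 7.96 in AngII, and Kcnj15 at 41.5 and 22.1 and at 21.7 and 49.3, both with overlapping groups. Kcnk3 was at 195 and 277 CPM in CTRL, 262 and 213 in AngII, 245 and 295 in AngII+2W, then 307 and 232 in AngII+3W. Its intervals reached from -0.52 to 0.54, from -0.33 to 0.72 and from -0.33 to 0.72 in the 3 comparisons with CTRL. Without AngII+3W replicate 1 its log2 fold change in AngII+3W against CTRL was -0.03. Kcnk6 was at 14.5 and 12.5 CPM in CTRL and 16.6 and 21.7 in AngII (log2 fold change 0.51 ± 0.18, edgeR FDR 0.158). Kcnk2 (TREK-1) and Kcnk5 lay between 0.926 and 3.02 CPM in all libraries without a call.

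Class by class, the called genes were 5 of 32 voltage-gated, 1 of 9 calcium-activated, 2 of 8 auxiliary, 0 of 10 inward rectifier and 0 of 9 two-pore genes. All were lower, beside 2.2% of all genes called lower and 2.9% called higher. A count of 0 or 1 in a class of 9 or 10 genes cannot be told apart from these shares. The class medians of the log2 fold change in AngII were -0.16 for voltage-gated, -0.36 for calcium-activated, -0.71 for inward rectifier, 0.01 for two-pore and 0.31 for auxiliary genes. The inward rectifier median was the lowest although none of its genes passed the test. Without CTRL replicate 1 these medians were 0.01, -0.19, -0.46, -0.17 and 0.58 in the same order, so that the signs of the voltage-gated and the two-pore median rest on that library. In AngII+3W the class medians were 0.28, 0.08, 0.03, 0.16 and -0.09, and without AngII+3W replicate 1 they were -0.12, 0.09, -1.81, 0.01 and 0.31. With a term for the level of cardiac muscle markers in the fit, a choice made after the data were examined, the inward rectifier median in AngII was 0.04. In the same fit Kcnd3 had an FDR of 0.0507 and Kcnq5 of 0.0791 by edgeR, and the other 6 of the 8 genes remained past the threshold.

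**Figure D3:**
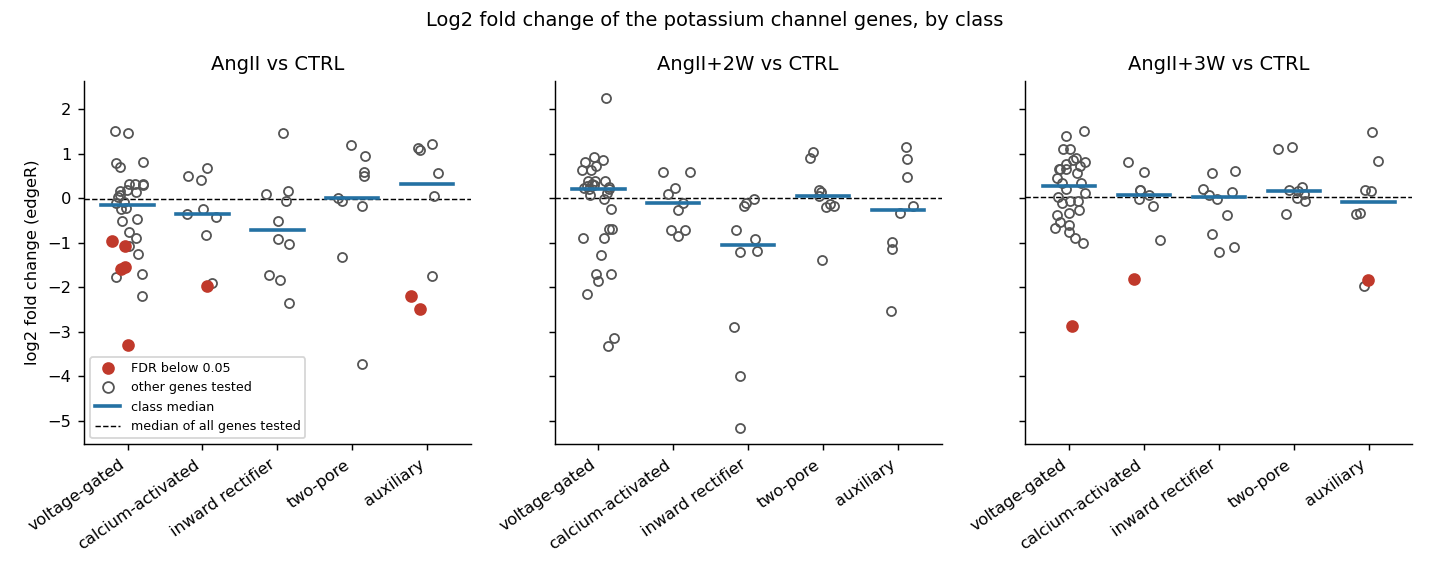
Log2 fold change by edgeR (y axis) of the 68 genes tested, by class (x axis), in each AngII group against CTRL (panels). Filled points passed the FDR threshold (8, 0 and 3 genes), blue bars are class medians and the dashed line is the median of all genes; the lowest bar is that of the inward rectifiers in the first 2 panels.

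The second comparison asked what remained 2 weeks after the infusion. In AngII+2W against CTRL, 0 of 68 genes passed the threshold by edgeR, and 0% of all genes did, while 6 genes passed with DESeq2, beside 1.47% of all genes. By edgeR 8 genes passed without AngII+3W replicate 1 and 9 without AngII+3W replicate 2, beside 1.47% and 1.54% of all genes. At an unadjusted p below 0.05, 15 genes were lower and 3 were higher, beside 6.18% and 4.52% of all genes, while 26 genes had both libraries below CTRL and 15 above it, which held for 22.2% and 21.7% of all genes. The smallest FDR was 0.174, that of Kcnc4 (log2 fold change -1.70 ± 0.27) and of Kcnh2 (-0.90 ± 0.16), followed by Kcnab1 at 0.186 (-1.14 ± 0.22). For Kcnmb1 the log2 fold change was -0.72, and for Kcnq5 it was -0.01 with an interval from -0.51 to 0.48. Among the genes with higher values, Kcnab3 was at 1.49 and 1.34 CPM, against 0.780 and 0.753 in CTRL, and Kcnc2 at 3.13 and 3.71, with an edgeR FDR of 0.398 and 0.420. All 10 inward rectifiers tested had a log2 fold change below 0 in AngII+2W, with a median of -1.06. The median was -0.44 without CTRL replicate 1 and 0.81 with the term for cardiac muscle markers.

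The third comparison took the libraries of 3 weeks after the infusion. In AngII+3W against CTRL, 3 of 68 genes (4.41%) were lower and 0 were higher at an FDR below 0.05, against 0.268% and 0.0175% of all genes. At an unadjusted p below 0.05, 9 were lower and 6 higher (7.18% and 5.34% of all genes), and 13 lay below CTRL in both libraries and 14 above it (18.3% and 19.8%). Without AngII+3W replicate 1, 14 were lower and 3 higher at an unadjusted p below 0.05, beside 10.6% of all genes in either direction. The 3 genes were Kcnc4 (log2 fold change -2.87 ± 0.29, edgeR FDR 0.0453), Kcnab1 (-1.84 ± 0.23, edgeR FDR 0.0455) and Kcnmb1 (-1.82 ± 0.25, edgeR FDR 0.0455), which were also among those lower in AngII, in a comparison that shares the CTRL libraries. All 3 FDR values were just under the threshold. Without AngII+3W replicate 1 the log2 fold changes were -2.86, -1.59 and -1.58, with an edgeR FDR of 0.0907, 0.0907 and 0.111, so that the size of the differences was similar and none was called. The count was also 0 when library totals replaced TMM, beside 0.00582% of all genes, and when only the 2 groups were fitted, beside 0%. Over the fits without 1 library, the log2 fold changes ranged from -3.062 to -2.680 for Kcnc4 and from -2.195 to -1.555 for Kcnab1. For Kcnmb1 they ranged from -2.166 to -1.584. The count of 3 moved between these fits, as given in the last section.

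Other genes differed in AngII+3W without a call. Kcnma1, at 28.4 and 47.9 CPM, had a log2 fold change of -0.94 with an interval from -1.52 to -0.37 (edgeR FDR 0.172), and of -0.62 without AngII+3W replicate 1. Kcnip4 had an FDR of 0.0948 by edgeR, and a log2 fold change of -1.78 without AngII+3W replicate 1. Kcna1 and Kcna6 had the smallest p among genes with higher values: Kcna1 was at 24.8 and 20.7 CPM against 14.4 and 13.3 in CTRL (log2 fold change 0.72 ± 0.21, edgeR FDR 0.208), and Kcna6 at 11.4 and 11.1 against 5.75 and 6.59 (0.86 ± 0.21, edgeR FDR 0.140). Without AngII+3W replicate 1 these were at 0.58 and 0.84. Kcnd1 was at 1.13 and 2.15 CPM, on both sides of its CTRL values.

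To ask which genes differed after the infusion from their level at its end, the AngII groups were compared directly. In AngII+3W against AngII, 3 of 68 genes were higher at an FDR below 0.05 and 0 were lower, beside 0.285% and 1.32% of all genes. They were Kcna2 (log2 fold change 1.17 ± 0.12, edgeR FDR 0.0178), Kcnh2 (1.02 ± 0.16, edgeR FDR 0.0360) and Kcna1 (1.22 ± 0.21, edgeR FDR 0.0423). Kcna6 was at an FDR of 0.0507 by edgeR (1.11 ± 0.21) and Kcnq5 at 0.0716 (1.01 ± 0.22). Kcna2 was thus below CTRL in both AngII libraries and above it in both AngII+3W libraries. The latter position held for 19.8% of all genes. Kcna2 was not called in AngII+3W against CTRL (0.21 ± 0.12, edgeR FDR 0.52). Leaving out AngII+3W replicate 1 put that value at 0.22. In AngII+3W against AngII, Kcnc4, Kcnab1 and Kcnmb1 had log2 fold changes of 0.42, 0.65 and 0.14. Their intervals reached from -0.30 to 1.15, from 0.12 to 1.17 and from -0.44 to 0.72. These 3 were at 0.445, 0.905 and 0.393 when AngII+3W replicate 1 was left out, and Kcna6 and Kcnq5 at 1.10 and 0.85. Without AngII+3W replicate 1, Kcna2, Kcnh2 and Kcna1 stood at 1.19, 1.18 and 1.10 with an FDR of 0.0505, 0.0529 and 0.116 by edgeR. Over all fits without 1 library, the log2 fold changes ranged from 1.097 to 1.203 for Kcna2 and from 0.798 to 1.184 for Kcnh2. For Kcna1 they ranged from 0.944 to 1.511, and the count of called genes moved, as given in the last section. In AngII+2W against AngII, 0 genes passed the threshold by edgeR, where 0.14% of all genes were lower and 0.0233% higher. By edgeR 6 genes were lower and 12 higher at an unadjusted p below 0.05 (8.45% and 6.57% of all genes), and 8 passed with DESeq2, beside 2.66% of all genes. The smallest FDR was 0.0655, that of Kcnab1 (log2 fold change 1.34) and Kcna2 (0.72).

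Kcna1, Kcna2 and Kcna6 are Kv1 genes of axons, so nerve and Schwann cell markers were set beside them. Of 10 such markers, 4 were called higher in AngII+3W than in AngII, among them Mbp, Sox10 and Cdh19, and 0 without AngII+3W replicate 1. The 10 markers summed to 0.0166 and 0.0195% of counts in CTRL, 0.0161 and 0.0159% in AngII, 0.0172 and 0.0173% in AngII+2W, then 0.0210 and 0.0245% in AngII+3W. The part of these markers in the values of Kcna1, Kcna2 and Kcna6 was not tested.

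Smooth muscle markers were lower as well, and the 8 genes called in AngII did not all keep pace with them. Of 10 markers, 8 were called lower in AngII and 5 in AngII+3W (0 without AngII+3W replicate 1), and together they took 1.13 and 0.923% of counts in CTRL, 0.220 and 0.285% in AngII, 0.491 and 0.460% in AngII+2W, then 0.224 and 0.425% in AngII+3W. In bulk tissue, fewer cells of a type and less RNA per cell cannot be told apart. Per 1000 counts of the 10 smooth muscle markers, Kcnc4 stood at 1.63 and 1.61 counts in CTRL, 0.607 and 0.750 in AngII, 0.843 and 1.38 in AngII+2W, then 0.937 and 0.558 in AngII+3W. Every library of treated mice was again below CTRL on this scale. Kcnab1 stood at 7.75 and 6.88 counts in CTRL, 5.95 and 5.13 in AngII, 7.18 and 7.43 in AngII+2W, then 7.16 and 6.11 in AngII+3W. Both AngII libraries were below CTRL, while the other groups overlapped with it, in a narrow range over all libraries. Kcnmb1 stood at 5.75 and 5.70 in CTRL, 6.29 and 6.02 in AngII, 8.65 and 6.51 in AngII+2W, then 5.69 and 4.79 in AngII+3W. Its libraries were thus above CTRL in AngII+2W, little above it in AngII, and near or below it in AngII+3W on this scale. Kcna2 stood at 2.71 and 3.37 in CTRL, 6.99 and 6.05 in AngII, 4.97 and 6.21 in AngII+2W, then 14.9 and 8.74 in AngII+3W. Kcnma1 stood at 7.27 and 6.88 in CTRL, 26.3 and 18.7 in AngII, 9.23 and 9.80 in AngII+2W, then 11.8 and 11.6 in AngII+3W. For both genes all libraries of treated mice were above CTRL. A gene that falls less than the markers rises on this scale. Kcnj8, which was not called, stood at 1.94 and 2.73 in CTRL and at 10.9 and 9.61 in AngII. Kcnk3, also not called, stood at 16.8 and 30.5 in CTRL and at 118 and 78.4 in AngII. Kcnh2 stood at 3.51 and 3.85 in CTRL, 5.71 and 4.85 in AngII, 3.79 and 4.82 in AngII+2W, then 9.66 and 7.06 in AngII+3W. Its AngII+2W libraries overlapped with CTRL. Kcnq5 stood at 0.853 and 0.890, 1.68 and 1.76, 1.69 and 2.10, then 3.97 and 1.84 in the same groups. Kcnd3 stood at 2.39 and 1.69 in CTRL and 3.11 and 2.74 in AngII. Kcnip4 stood at 0.223 and 0.207 in CTRL and 0.219 and 0.174 in AngII. The scale was chosen after the values were seen and no test was made on it.

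**Figure D4:**
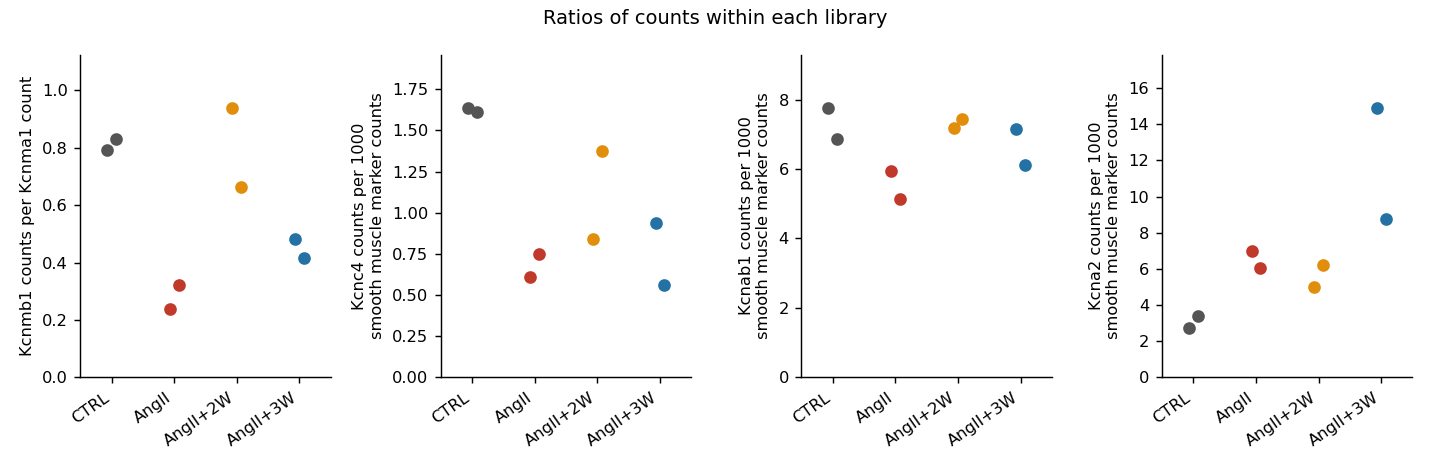
Counts of Kcnmb1 per count of Kcnma1, and of Kcnc4, Kcnab1 and Kcna2 per 1000 counts of 10 smooth muscle markers (y axes, from 0), in each library by group (x axis). Kcnmb1 per Kcnma1 is lowest in AngII at 0.239 and 0.321, Kcnc4 is below CTRL in all 6 other libraries, Kcnab1 stays between 5.13 and 7.75, and Kcna2 lies above CTRL in all 6.

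A set of channel genes, several of them known from cardiac muscle, was high in the libraries with the most cardiac muscle markers. In 9 of 68 genes tested (13.2%), against 3.78% of all genes, the 3 highest libraries were the 3 with the most cardiac markers (CTRL replicate 1, CTRL replicate 2 and AngII+3W replicate 1): Kcnj3, Kcnj5, Kcnj11, Kcnj12, Kcng2, Kcna7, Kcnv2, Kcnip2 and Kcnn2. Kcnj3 and Kcnj5 form the acetylcholine-activated channel of the atrium. Kcnj3 was at 91.1 and 27.4 CPM in CTRL, 13.9 and 9.15 in AngII, 2.94 and 0.268 in AngII+2W, then 131 and 5.32 in AngII+3W, a 24.6-fold difference between the 2 libraries of AngII+3W. Kcnj5 differed 15.4-fold and Kcnj11, the pore of the cardiac ATP-sensitive channel, 8.03-fold between the same libraries. With all 8 libraries in the edgeR fit no gene of the 9 was called in the 3 comparisons with CTRL. Without AngII+3W replicate 1, and likewise without AngII+3W replicate 2, Kcnip2, Kcnj3, Kcnj5, Kcng2 and Kcnj11 were called lower in AngII+2W, and Kcnip2 and Kcnj11 in AngII. With only the 2 groups in the edgeR fit, Kcnip2, Kcnj3 and Kcnj11 were called lower in AngII, and with DESeq2 Kcng2 and Kcnj11 were called lower in AngII+2W. The set was drawn up after its values were seen. By its rule both CTRL libraries lay above every AngII and AngII+2W library, so that the direction of these calls was fixed in advance. Abcc8, whose product pairs with that of Kcnj11, went the same way, at 10.6 and 4.09 CPM in CTRL, 2.54 and 1.71 in AngII, 0.747 and 0.483 in AngII+2W, then 11.2 and 0.860 in AngII+3W. The part of cardiac muscle in these values was not tested. Kcnj8 and Kcnk3 did not follow the markers.

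**Figure D5:**
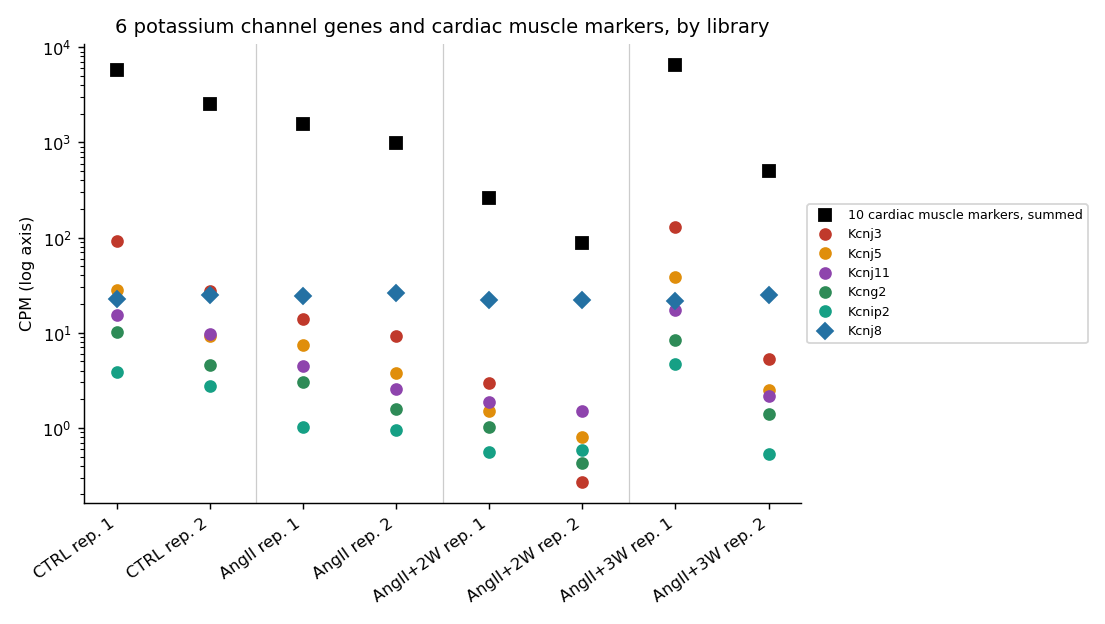
CPM on a log axis (y axis) of Kcnj3, Kcnj5, Kcnj11, Kcng2, Kcnip2 and Kcnj8 and of 10 summed cardiac muscle markers (squares) in the 8 libraries (x axis, groups parted by lines). The first 5 genes are high where the markers are high, in the CTRL libraries and AngII+3W replicate 1, while Kcnj8 (diamonds) stays between 21.8 and 26.1.

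Genes that act on smooth muscle potassium channels without belonging to the family were read from 2 lists. Of 23 regulators, 5 were called lower in AngII and 0 higher, beside 2.2% and 2.9% of all genes. Ryr2 is on this list and among the cardiac muscle markers, and the part of cardiac muscle was not tested. Gucy1b1 and Gucy1a1, the subunits of the soluble guanylate cyclase that nitric oxide activates, had log2 fold changes of -1.58 and -1.17 (edgeR FDR 0.00753 and 0.0129). Prkg1, the cGMP-dependent kinase that opens the large-conductance channel, was at -0.88 (edgeR FDR 0.0467). Cacna1c and Cacnb2, the pore and a beta subunit of the L-type calcium channel, were at -0.89 and -1.69 (edgeR FDR 0.0332 and 0.0226). In AngII+3W, Gucy1b1 alone of the 23 was called (-1.36, edgeR FDR 0.0455), and it was at -1.46 without AngII+3W replicate 1 (edgeR FDR 0.0907). Over all 23, the median log2 fold change in AngII was -0.29. Of 12 partner genes outside the Kcn symbols, 8 were tested and 0 were called in the 3 comparisons with CTRL by edgeR. Of all genes, 5.1%, 0% and 0.285% were called in AngII, AngII+2W and AngII+3W.

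Some of the values are less certain for reasons of annotation. Kcnj14 shares 99.1% identity over 46.3% of its transcript with the pseudogene Gm5522, Kcnk4 shares exon sequence with Catsperz on the same strand, and an antisense transcript covers 40.4% of that of Kcna6. No transcript of another gene shared 20% or more of the sequence of any of the 8 genes called in AngII. Kcna3, Kcna2 and Kcnc4 lie near each other on chromosome 3, with 63076 bases between the first and the second and 323298 between the second and the third, and Kcnd3 and Kcnab1 lie on the same chromosome further away.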

How the data were processed

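RNA-sequencing of aortic tissue was used in 8 libraries, grouped and numbered by their labels. The authors quantified transcripts with Salmon (GRCm38.p6 per the labels) and summed them to genes. These expected counts were deposited as whole numbers, not normalized, and 11469 genes were at 0 in every library. The counts were tested here with edgeR 4.0.16 in R 4.3.3, with filterByExpr, TMM, 1 coefficient per group over all 8 libraries (4 residual degrees of freedom) and Benjamini-Hochberg adjustment over 17182 genes (FDR, threshold 0.05). The standard error is the log2 fold change divided by the square root of F, and intervals (95%) use its t distribution. With 2 libraries a group, exact permutation p-values start at 0.33, so none were used. The test was checked on simulated counts with known changes. The members and gene lists were chosen with earlier results of these data known. Genes are named when called, when among the 3 highest per kb of a class, when among the 3 smallest p in each direction, or when known from vessel or blood. A few genes that fall under this rule are not reported here. Exon lengths and positions are from GENCODE vM21 (GRCm38), sequences from RefSeq and GENCODE, and copies were searched with BLAST 2.17.0. DESeq2 1.42.0, other scalings and filters, a replicate block, 2-group fits and leaving out each library were tried as alternatives, and a covariate for cardiac muscle markers was added after the data were examined. Whether replicates with the same number pair was checked by correlating their deviations. The RT-qPCR, protein and cell experiments were not analysed here.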

Additional observations from a re-analysis of the deposited data

Results flagged for a closer look

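The change since the end of the infusion differed from 0 in 3 genes, as tested by the direct comparison of AngII+3W with AngII, which is also the test of a difference between their effects against CTRL. Kcna2 was higher by 1.17 on the log2 scale (edgeR FDR 0.0178), with both libraries of AngII+3W above both of AngII. Kcnh2 was higher by 1.02 (edgeR FDR 0.0360) and Kcna1 by 1.22 (edgeR FDR 0.0423), again in 2 of 2 libraries against 2 of 2. Nerve and Schwann cell markers moved with Kcna1 and Kcna2 as given above, and their part was not tested. Groups of 2 libraries do not allow a test of single libraries against their group.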

How the results depend on the processing

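Of the 14 calls of single genes, all kept their direction in each of the 223 alternative values, and 83 of these values did not pass the threshold. In each call both libraries of a group lay on 1 side of both of the other. Leaving out a library could therefore hardly turn the direction. The counts of called genes moved more. In AngII the count of 8 ranged from 0 to 13 when 1 library was left out, with 0 without AngII replicate 2, 2 without CTRL replicate 1 and 3 without AngII replicate 1. In AngII+2W the count of 0 ranged from 0 to 9 when 1 library was left out (8 and 9 without AngII+3W replicate 1 or 2) and was 6 with DESeq2. In AngII+3W the count of 3 ranged from 0 to 6, was 0 with library totals, with only the 2 groups fitted and with the replicate block, and 5 with DESeq2, beside 0.285% of all genes in the fit of all libraries and 2.4% with DESeq2. In AngII+2W against AngII the count of 0 ranged from 0 to 4, and was 6 with every gene tested, 8 with DESeq2 and 12 with only the 2 groups, while the share of all genes called moved from 0.163% to 0.991%, 2.66% and 5.34%. In AngII+3W against AngII the count of 3 ranged from 0 to 13 and was 8 with DESeq2 and 0 with only the 2 groups. Of all genes, 3.89% were called there with DESeq2 and 0% with only the 2 groups. In AngII+3W against CTRL the share was 0.00582% with library totals, 0% with only the 2 groups and 0.0233% with the replicate block. When 1 library was left out, the share of all genes called moved as well. In each comparison the largest count came in a fit with a large share of all genes called. The moves were thus not particular to the potassium channel genes. A fit without a library has fewer residual degrees of freedom, and a library left alone in its group was assumed to vary like the other groups. The median of all 68 genes moved in AngII+2W, from -0.12 to 0.16 with the covariate for cardiac muscle markers. The replicate block gave 7 genes in AngII and 0 in AngII+2W. In AngII+3W it put Kcnc4, Kcnab1 and Kcnmb1 at an FDR of 0.0585, 0.0743 and 0.0743. Deviations of libraries with equal numbers correlated by -0.01 to 0.39 between groups, above 0.1 in 3 of 6 pairs of groups, and the labels name nothing that a number marks, so a pairing was not established. Apart from the alternatives' own construction, the cause was not tested. Depth limits genes under about 1 CPM.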
